A study of Mus musculus with 6 samples.

Results

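The genes described here are the PAR bZIP transcription factors Dbp, Tef and Hlf, taken from the count table by their symbols, 3 of the 55487 genes listed. They were chosen because earlier results of these same tumors showed them to differ between the groups, so their difference between control and IFN-γ tumors is given as a description, without a test. RNA was sequenced from 6 subcutaneous tumors of CT26.WT, a mouse colon carcinoma line, grown in immunocompetent wild-type BALB/c mice. By the labels, 3 tumors were controls and 3 had IFN-γ stimulation, and per the methods of the study, control mice received PBS and the others IFN-γ by repeated tail-vein injection. The methods describe young male mice with tumors placed under the skin of the upper back, followed until the tumors reached a set diameter, so the RNA is that of whole tumors with their host cells. The labels give neither the age of the mice nor the time of day at collection, and the part of collection time in the clock genes was not tested.

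PAR bZIP factors are named for a region rich in proline and acidic residues next to a basic leucine zipper, and they bind as dimers to a sequence called the D-box. Their own genes are read out by the circadian clock, in which Arntl and Clock activate genes through E-boxes and the Period, Cryptochrome and Rev-erb proteins repress in turn. Dbp is the member with the deepest daily rhythm in most tissues, and Tef and Hlf cycle less. Nfil3, a related bZIP protein without the PAR region, binds the same D-box and represses. In liver and kidney the family is known for daily control of genes for drug and metabolite handling.

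The libraries held between 15759300 and 17559680 counts, and 15114 genes passed the filter on low counts, all 3 PAR bZIP genes among them. One library stood apart. IFN-γ tumors 1 and 2 differed from each other by a chi-square of 6.17 per gene, whereas IFN-γ tumor 3 differed from them by 30.6 and 33.0. From control tumors 1, 2 and 3 it differed by 17.6, 30.3 and 20.0. IFN-γ tumors 1 and 2 differed from the control tumors by 16.2 to 29.1, and control tumors differed from each other by 11.2 to 15.5. A list of 10 IFN-γ response genes used as a check of the treatment (Irf1, Gbp2, Gbp3, Cxcl9, Cxcl10, Igtp, Irgm1, Cd274, Psmb8 and Psmb9) summed to between 1056 and 1758 CPM (counts scaled to library size with TMM factors) in the control tumors and to 1402 in IFN-γ tumor 3, within that range. In IFN-γ tumors 1 and 2 they summed to 2959 and 3108. Keratinocyte markers summed to 77.0 CPM in IFN-γ tumor 3 and to between 7.84 and 15.6 CPM in the other 5 tumors. Of the markers of colon epithelium, Cdx2 had 0 counts in every tumor and Epcam did not exceed 0.928 CPM, whereas Krt20 lay between 113 and 271 CPM. Values without IFN-γ tumor 3 are given beside the results that rest on it, except for the response genes.

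The promoter windows of the 3 genes are shown because the members moved together and the sequence elements through which clock and interferon factors act can be looked for in them. Each window holds the 250 bases before and the 50 bases after an annotated start site, from RefSeq on GRCm38.p6, and reads 5′ to 3′ on the strand of the gene. Capitals mark a match on either strand to one of the motifs searched.

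Dbp (chr7:45704997-45705296, plus strand): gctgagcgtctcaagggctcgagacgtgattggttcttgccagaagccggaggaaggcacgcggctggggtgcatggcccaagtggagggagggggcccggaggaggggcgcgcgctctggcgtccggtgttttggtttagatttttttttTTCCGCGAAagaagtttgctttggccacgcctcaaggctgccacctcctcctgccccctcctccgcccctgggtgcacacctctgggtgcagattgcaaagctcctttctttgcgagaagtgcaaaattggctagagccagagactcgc

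Tef, first start (chr15:81802423-81802722, plus strand): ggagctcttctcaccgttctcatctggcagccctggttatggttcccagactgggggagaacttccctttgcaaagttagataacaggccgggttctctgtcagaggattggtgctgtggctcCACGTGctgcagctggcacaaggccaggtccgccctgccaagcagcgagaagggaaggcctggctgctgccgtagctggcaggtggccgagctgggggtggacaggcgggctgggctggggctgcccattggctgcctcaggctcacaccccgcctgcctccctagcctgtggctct

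Tef, second start (chr15:81811164-81811463, plus strand): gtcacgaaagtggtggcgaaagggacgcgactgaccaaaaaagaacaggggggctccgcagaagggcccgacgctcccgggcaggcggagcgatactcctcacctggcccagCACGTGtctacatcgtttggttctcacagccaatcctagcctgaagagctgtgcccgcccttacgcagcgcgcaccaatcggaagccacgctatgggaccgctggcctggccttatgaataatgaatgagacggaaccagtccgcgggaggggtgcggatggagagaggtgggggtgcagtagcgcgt

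Hlf (chr11:90390868-90391167, minus strand): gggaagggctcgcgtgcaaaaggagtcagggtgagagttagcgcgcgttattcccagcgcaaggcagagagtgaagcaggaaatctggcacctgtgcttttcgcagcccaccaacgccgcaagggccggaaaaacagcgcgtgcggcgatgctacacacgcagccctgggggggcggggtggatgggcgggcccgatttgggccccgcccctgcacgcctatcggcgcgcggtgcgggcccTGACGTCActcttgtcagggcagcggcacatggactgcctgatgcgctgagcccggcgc

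The motifs were the E-box CACGTG, the variant E-box CACGTT, the D-box as TTATGTAA, TTATGCAA or TTACGTAA, the interferon-gamma-activated element TTCNNNGAA, the cyclic AMP response element TGACGTCA and the ROR half-site NTAGGTCA. Both Tef windows held 1 E-box, beginning 127 and 138 bases before the start sites, as did 7.15% of all 32851 windows. The Dbp window held no E-box of either spelling. It held 1 match to TTCNNNGAA, beginning 99 bases before the start site, found in 8.30% of all windows. In Hlf a match to TGACGTCA began 9 bases before the start site, found in 1.79% of windows. None of the 4 windows held a D-box in these spellings. A match is a description of the letters and not a site, and sites outside these windows were not looked for.

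**Figure D1:**
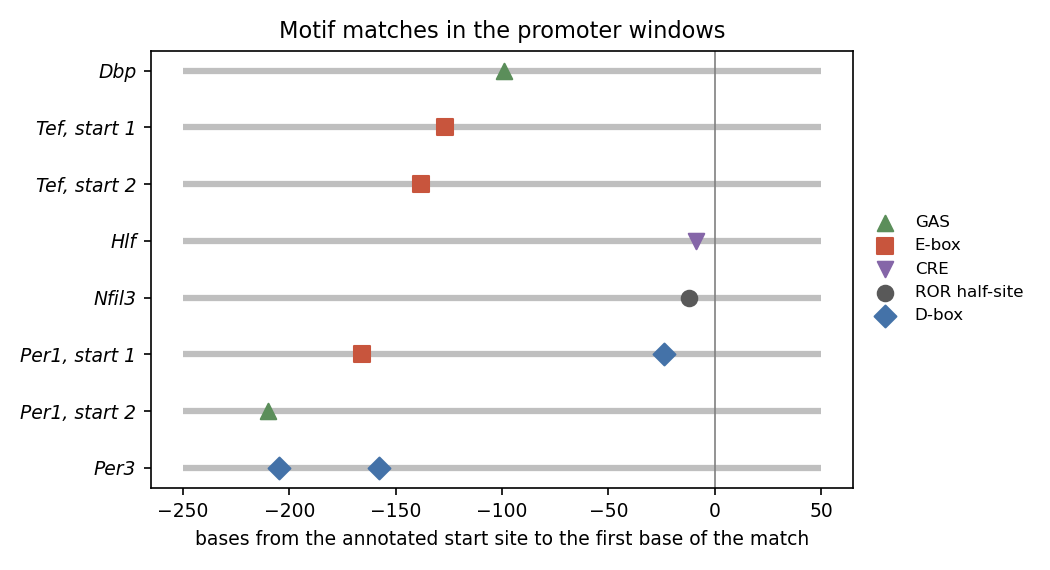
Position of motif matches, in bases from the annotated start site, in the promoter windows of Dbp, Tef (2 starts), Hlf, Nfil3, Per1 (2 starts) and Per3; each grey line is 1 window from 250 bases before to 50 bases after the start. Both Tef windows carry an E-box, Dbp a match to the interferon-gamma-activated element (GAS), Hlf a cyclic AMP response element (CRE), and the D-boxes lie in Per1 and Per3.

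Dbp (ENSMUSG00000059824) spans chr7:45705088-45710203, plus strand, in GENCODE M21 on GRCm38. It had 137, 148 and 119 counts in control tumors 1, 2 and 3, or 8.57, 8.34 and 6.80 CPM. In IFN-γ tumors 1, 2 and 3 it had 2266, 2743 and 2626 counts, or 132, 168 and 162 CPM. The groups did not overlap, and the lowest IFN-γ tumor was 15.4 times the highest control. Group means were 7.90 ± 0.962 CPM for control and 154 ± 19.5 CPM for IFN-γ (SD, n = 3 each), with a fitted log2 fold change of 4.28. IFN-γ tumor 3, whose IFN-γ response genes stood at the control level, had nearly as much Dbp as IFN-γ tumor 2, and without it the log2 fold change was 4.23.

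Tef (ENSMUSG00000022389), the thyrotroph embryonic factor, spans chr15:81802421-81826863, plus strand. Control tumors 1, 2 and 3 had 54.6, 55.4 and 43.3 CPM of Tef. The corresponding values of IFN-γ tumors 1, 2 and 3 were 219, 230 and 234 CPM. Again the groups lay apart, and the 3 IFN-γ tumors were close together, with a coefficient of variation of 3.46% against 13.2% among the controls. The means were 51.1 ± 6.76 CPM and 228 ± 7.88 CPM (SD, n = 3 each), and the fitted log2 fold change was 2.15, or 2.13 without IFN-γ tumor 3. The counts do not separate transcripts from the first and the second start site.

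Hlf (ENSMUSG00000003949), the hepatic leukemia factor, spans chr11:90336536-90390895, minus strand, and was much lower. It had 22, 14 and 30 counts in control tumors 1, 2 and 3 and 80, 58 and 71 in IFN-γ tumors 1, 2 and 3, or 0.789 to 1.71 CPM against 3.54 to 4.64 CPM. No IFN-γ tumor was as low as a control, although counting error is wide at this depth. The exact 95% Poisson interval of the highest control reached from 1.16 to 2.45 CPM and that of the lowest IFN-γ tumor from 2.69 to 4.58 CPM, counting error only. The fitted log2 fold change was 1.69, and 1.65 without IFN-γ tumor 3. It ranged from 1.43 to 1.95 when single tumors were left out, the lowest without control tumor 2 and the highest without control tumor 3.

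**Figure D2:**
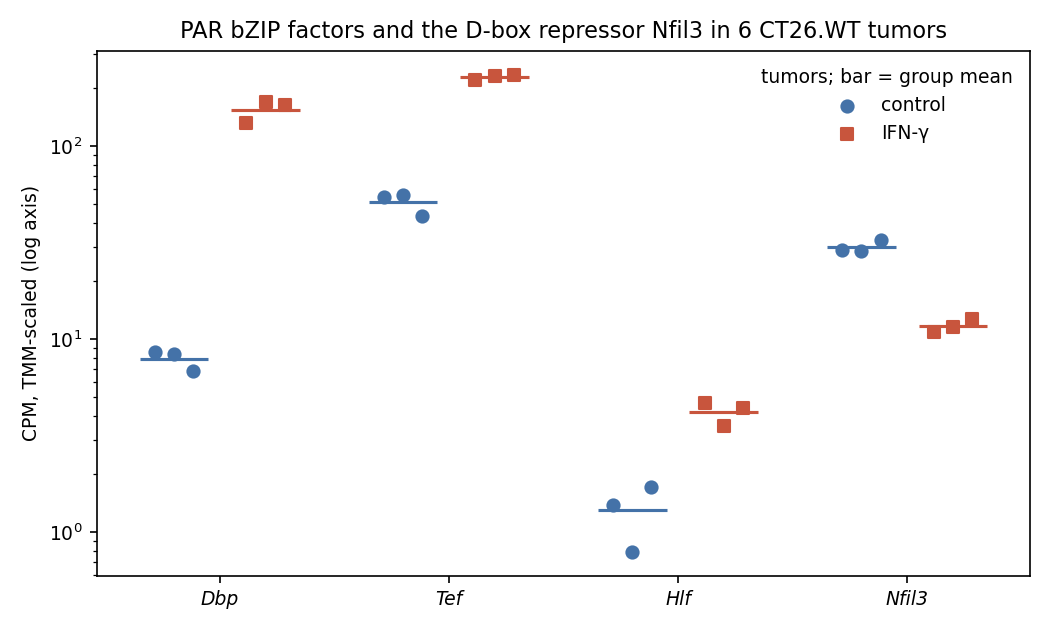
CPM on a log axis of Dbp, Tef, Hlf and the repressor Nfil3 in each control tumor (circles) and each IFN-γ tumor (squares), with a bar at each group mean. The 3 PAR bZIP genes lie higher in every IFN-γ tumor than in any control tumor, and Nfil3 lies lower.

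For the 3 genes, 3 of 3 had every IFN-γ tumor above every control, as did 7.62% of all genes tested, and 2 of 3, Dbp and Tef, were among the 12 genes that passed the adjusted threshold of 0.05 as higher in the IFN-γ group in edgeR (0.0794% of genes tested). Because these genes were picked on this contrast, nothing is read from those counts. Over all genes tested, 7.5% had every IFN-γ tumor below every control and 10.2% had an unadjusted p under 0.05. In bulk tumors, more RNA per cell and more cells that carry the RNA cannot be told apart.

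Levels of different genes were compared as CPM per kilobase of merged exons. In the control tumors the order was Tef at 6.50 ± 0.859, Dbp at 2.64 ± 0.321 and Hlf at 0.194 ± 0.0701 CPM per kilobase (SD, n = 3 each). In the IFN-γ tumors Dbp came first at 51.4 ± 6.51, then Tef at 28.9 ± 1.0 and Hlf at 0.628 ± 0.0863 (SD, n = 3 each). Neighbors in each order lay apart in every tumor, and the places of Dbp and Tef were exchanged between the groups. Ranked by this measure among 15091 genes tested with a length, Dbp stood between places 10047 and 10719 in the control tumors and between 970 and 1220 in the IFN-γ tumors. Tef stood between 6958 and 7835 in the control tumors and between 2005 and 2053 in the IFN-γ tumors, and Hlf stood at place 12925 or further down in all 6.

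Summed over the 3 genes, the level was 9.33 ± 1.12 CPM per kilobase in the control tumors and 81.0 ± 7.39 in the IFN-γ tumors, 8.67 times higher. Dbp made up 28.3 ± 0.291% of the sum in the control tumors and 63.4 ± 2.38% in the IFN-γ tumors (SD, n = 3 each). In single control tumors the share of Dbp lay between 28.0% and 28.6%, that of Tef between 68.5% and 70.8% and that of Hlf between 1.19% and 3.19%.

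**Figure D3:**
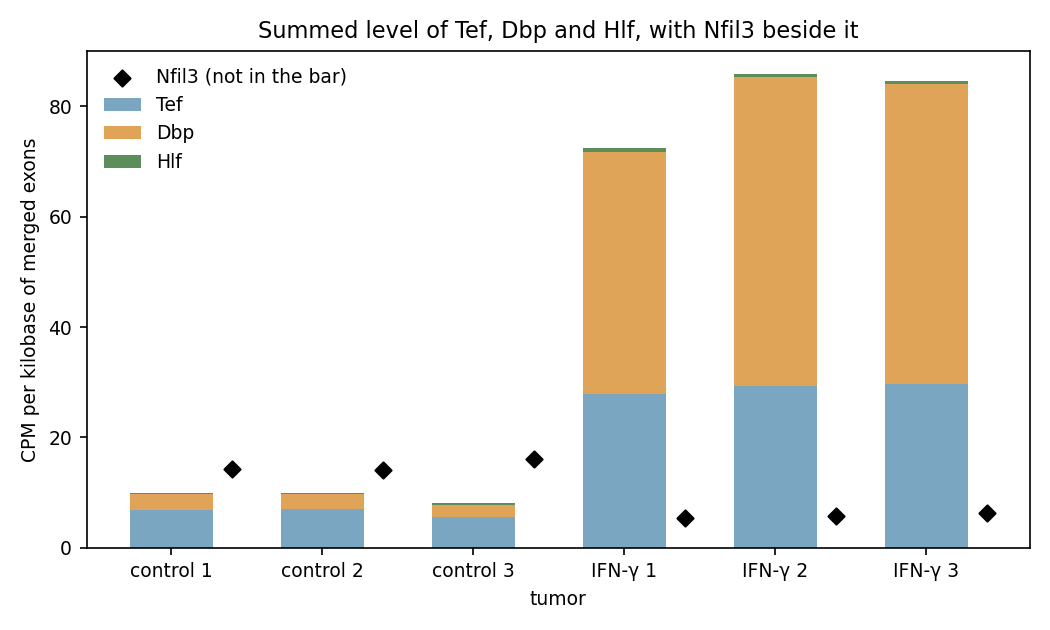
Level of Tef, Dbp and Hlf in CPM per kilobase of merged exons, stacked for each of the 6 tumors, with the level of Nfil3 as a diamond beside each bar. By this length the summed bar lies below the Nfil3 diamond in the 3 control tumors, an order that depends on the length used. It lies far above the diamond in the 3 IFN-γ tumors, where Dbp is the largest part.

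Nfil3, the repressor that shares the D-box, was tested in the same fit. It had 461, 505 and 568 counts in control tumors 1, 2 and 3, or 28.8, 28.5 and 32.5 CPM, and 188, 189 and 204 counts in IFN-γ tumors 1, 2 and 3, or 10.9, 11.5 and 12.6 CPM. The groups did not overlap, and Nfil3 fell in all 3 IFN-γ tumors relative to every control. It fell by 1.36 on the log2 scale (standard error 0.11, adjusted p = 0.0043, edgeR's quasi-likelihood test), one of the 5 genes that passed the threshold as lower (0.0331% of genes tested). Per kilobase, the summed PAR bZIP level was 0.638 ± 0.118 times that of Nfil3 in the control tumors and 14.03 ± 0.886 times in the IFN-γ tumors (SD, n = 3 each). By merged exon length, the order of activators and repressor was the same in all tumors of a group and opposite between the groups. In the control tumors that order depends on the length used. The longest coding transcripts of Dbp, Tef and Hlf have 1837, 4403 and 5642 bases, against 2993, 7867 and 6681 in merged exons. Nfil3 has 2026 bases by either measure. With the shorter lengths the sum would not lie below Nfil3 in every control tumor. The Nfil3 promoter window held a ROR half-site, the element through which Rev-erb proteins repress, beginning 12 bases before the start site, as did 2.59% of windows.

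Nfil3 (chr13:52980990-52981289, minus strand): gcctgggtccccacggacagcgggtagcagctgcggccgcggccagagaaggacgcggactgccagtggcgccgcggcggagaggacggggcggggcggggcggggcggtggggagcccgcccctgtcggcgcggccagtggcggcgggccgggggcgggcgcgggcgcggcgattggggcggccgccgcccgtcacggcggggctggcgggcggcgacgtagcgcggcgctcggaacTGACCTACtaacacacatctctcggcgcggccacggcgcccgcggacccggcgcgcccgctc

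The regulators of the family were examined with a list of 20 core clock genes, of which 18 were tested. Past the adjusted threshold were 5 that rose and 2 that fell, where 0.112% of all genes tested passed in either direction. The list was written with these results known. Arntl, the activator that works with Clock, was at 67.5, 71.3 and 70.1 CPM in the control tumors and at 17.1, 14.2 and 16.6 CPM in the IFN-γ tumors, and fell by 2.12 on the log2 scale (adjusted p = 7.3e-05, edgeR). Clock itself was at 162 ± 11.9 CPM and 111 ± 10.4 CPM (SD, n = 3 each), a log2 fold change of -0.54 that did not pass (adjusted p = 0.11, edgeR). It passed without IFN-γ tumor 3 (adjusted p = 0.033, edgeR) and in DESeq2 (adjusted p = 2.3e-04). Besides Arntl and Nfil3, the genes past the threshold were Nr1d1, Nr1d2, Per1, Per2 and Bhlhe41, the last at an adjusted p of 0.048 (edgeR), or between 0.11 and 0.24 without any 1 of the 3 control tumors, IFN-γ tumor 1 or IFN-γ tumor 2. Without IFN-γ tumor 3, 11 of 19 tested genes passed, where 3.18% of all genes did in the same fit, and without control tumor 2 or IFN-γ tumor 1, 4 did.

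Among the clock genes, 8 have D-boxes known from earlier work in their regulatory DNA, 7 of which were tested. Of these 7, 4 rose and none fell at the adjusted threshold, against 0.112% of all genes tested. Their median log2 fold change was 1.11 against 0.0015 over all genes tested. The 8 genes are also in the core clock list, so their count is part of the one above. This list too was written with the results known. Nr1d1, which encodes the repressor Rev-erbα, had 17.6, 18.4 and 8.46 CPM in the control tumors against 97.8, 110 and 105 CPM in the IFN-γ tumors, and rose by 2.82 on the log2 scale (standard error 0.25, adjusted p = 0.0055, edgeR). Its paralog Nr1d2 rose by 2.19 (standard error 0.18, adjusted p = 0.0043, edgeR). Per1 and Per2, which encode Period repressors, rose by 1.66 (standard error 0.15, adjusted p = 0.0062, edgeR) and 0.88 (standard error 0.081, adjusted p = 0.0064, edgeR). The call of 4 genes became 2 without control tumor 2 or IFN-γ tumor 1, whereas leaving out IFN-γ tumor 3 gave 6. Per1 had an adjusted p of 0.058 without control tumor 2 and 0.053 without IFN-γ tumor 1, and Per2 had one between 0.053 and 0.071 without control tumor 1, control tumor 2, IFN-γ tumor 1 or IFN-γ tumor 2 (edgeR).

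Per3 averaged 24.4 ± 6.70 CPM in control and 52.6 ± 2.70 CPM in IFN-γ tumors (SD, n = 3 each) without overlap. Its log2 fold change was 1.11, with an adjusted p of 0.096 in edgeR, or 0.025 without IFN-γ tumor 3. The fitted log2 value of Cry1, -0.67, was opposite in sign to the Period genes, with an adjusted p of 0.32 in edgeR, or 0.036 without IFN-γ tumor 3. The groups of Cry1 did not overlap either. Rora, at 3.09 to 6.48 CPM over the 6 tumors, had overlapping groups, and Rorb had 1 count in all. D-boxes in the spellings given above were found in the promoter windows of Per1 and Per3, and in 1.78% of all windows. The windows of Cry1, Nr1d1, Nr1d2, Rora and Rorb held none, and Per2 had no window to search. D-boxes also lay in windows of genes for drug and metabolite handling that had too few counts to be tested. The Per1 and Per3 windows with a match are printed because D-boxes are the elements that PAR bZIP proteins and Nfil3 bind. The first Per1 window held an E-box and a D-box, beginning 166 and 24 bases before the start site. The Per3 window held 2 D-boxes, beginning 205 and 158 bases before it.

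Per1, first start (chr11:69098699-69098998, plus strand): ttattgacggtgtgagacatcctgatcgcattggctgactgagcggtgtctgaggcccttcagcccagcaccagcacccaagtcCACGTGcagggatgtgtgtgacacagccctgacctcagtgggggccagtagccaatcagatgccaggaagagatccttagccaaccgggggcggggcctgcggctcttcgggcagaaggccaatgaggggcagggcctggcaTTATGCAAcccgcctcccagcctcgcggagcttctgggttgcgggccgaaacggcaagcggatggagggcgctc

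Per3 (chr4:151044616-151044915, minus strand): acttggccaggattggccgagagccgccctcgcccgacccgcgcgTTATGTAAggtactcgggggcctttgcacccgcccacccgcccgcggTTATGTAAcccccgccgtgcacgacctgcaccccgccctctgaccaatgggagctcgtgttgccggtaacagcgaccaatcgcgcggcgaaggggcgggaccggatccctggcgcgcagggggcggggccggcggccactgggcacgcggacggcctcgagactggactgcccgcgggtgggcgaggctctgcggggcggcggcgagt

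**Figure D4:**
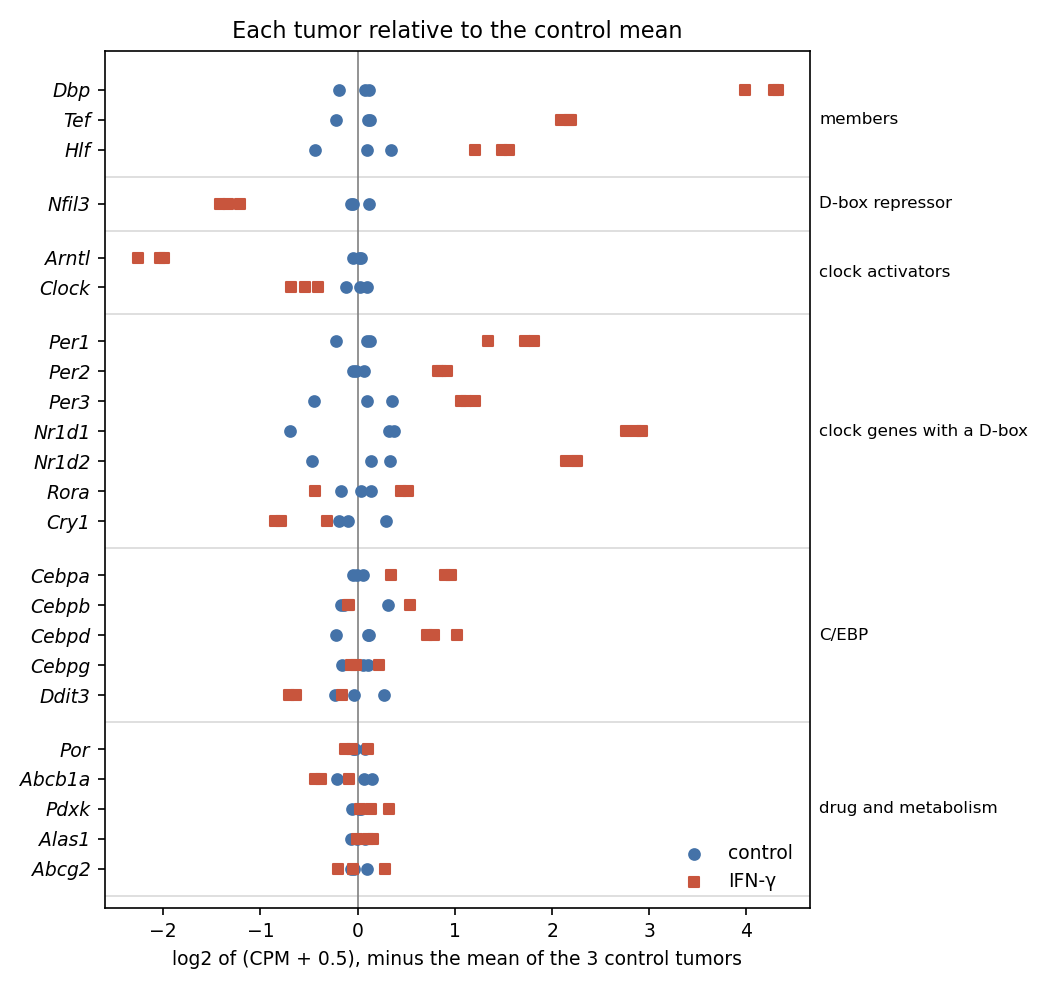
Each tumor's log2 of CPM plus 0.5, minus the mean of the 3 control tumors, for the PAR bZIP genes, Nfil3, the clock activators, 7 clock genes with a D-box, 5 C/EBP genes and 5 drug and metabolism genes; circles are control and squares IFN-γ tumors. The squares of Dbp lie near 4, those of Nfil3 and Arntl lie left of every control, and those of the drug and metabolism genes lie among or near the controls.

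The outputs of the family in liver, kidney and brain were followed in a list of 16 genes for drug and metabolite handling. Only 5 were abundant enough to be tested, and 7, all of them cytochrome P450 genes, did not exceed 3 counts in any tumor. Of the 5 tested, 0 passed the adjusted threshold in edgeR, DESeq2 or limma-voom, and 1, Abcb1a, had an unadjusted p under 0.05 in edgeR. Over all genes tested these shares were 0.112% and 10.2% in edgeR, so counts of 0 and 1 in 5 genes say nothing particular about the list. Pdxk, the pyridoxal kinase whose level in brain depends on the family, had 58.9, 62.8 and 62.0 CPM in the control tumors against 67.4, 76.7 and 62.0 CPM in the IFN-γ tumors, with overlapping groups and a fitted difference of 0.17 on the log2 scale (standard error 0.091, adjusted p = 0.58, edgeR). Abcb1a, a drug efflux pump, differed by -0.30 on the log2 scale (standard error 0.12, adjusted p = 0.45, edgeR). Por, the electron donor of cytochrome P450 enzymes, and Alas1, the first enzyme of heme synthesis, had log2 fold changes of -0.026 (standard error 0.084) and 0.087 (standard error 0.086). The summed level of the 16 genes ran from 391 to 431 CPM in the control tumors and from 382 to 422 CPM in the IFN-γ tumors. The groups overlapped for all 5 tested genes.

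The C/EBP proteins are bZIP factors related to the family and recognize related sequences. Of 6 genes, 5 were tested and 0 passed the adjusted threshold in edgeR, with 3 at an unadjusted p under 0.05, against 0.112% and 10.2% of all genes tested. DESeq2 called 2, Cebpa and Cebpd, where it called 1.3% of all genes, and limma-voom called 0. Cebpd had 27.2, 21.4 and 27.0 CPM in the control tumors against 41.4, 43.6 and 51.6 CPM in the IFN-γ tumors, without overlap (log2 fold change 0.85, standard error 0.13, adjusted p = 0.074, edgeR). Cebpa ranged from 13.3 to 14.3 CPM in the control tumors and from 17.6 CPM in IFN-γ tumor 3 to 27.2 CPM in IFN-γ tumor 2 (log2 fold change 0.78, adjusted p = 0.22, edgeR). Both passed without IFN-γ tumor 3, a fit in which 3.18% of all genes passed, with adjusted p of 0.019 for Cebpd and 0.0096 for Cebpa in edgeR.

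Tumor by tumor, Dbp and Tef were high in all 3 IFN-γ tumors, whereas the IFN-γ response genes were high in tumors 1 and 2 alone. Relative to the control mean, the log2 ratio of Dbp was 3.98, 4.33 and 4.28 in IFN-γ tumors 1, 2 and 3, and that of Tef was 2.10, 2.17 and 2.19. The median log2 ratio of the 10 response genes was 1.07, 1.08 and -0.058 in the same tumors. None of the 10 response genes passed the adjusted threshold in the fit of all 6 tumors in edgeR, with 6 at an unadjusted p under 0.05, against 0.112% and 10.2% of all genes tested. These counts include IFN-γ tumor 3, and calls of the response genes without it are not given.

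**Figure D5:**
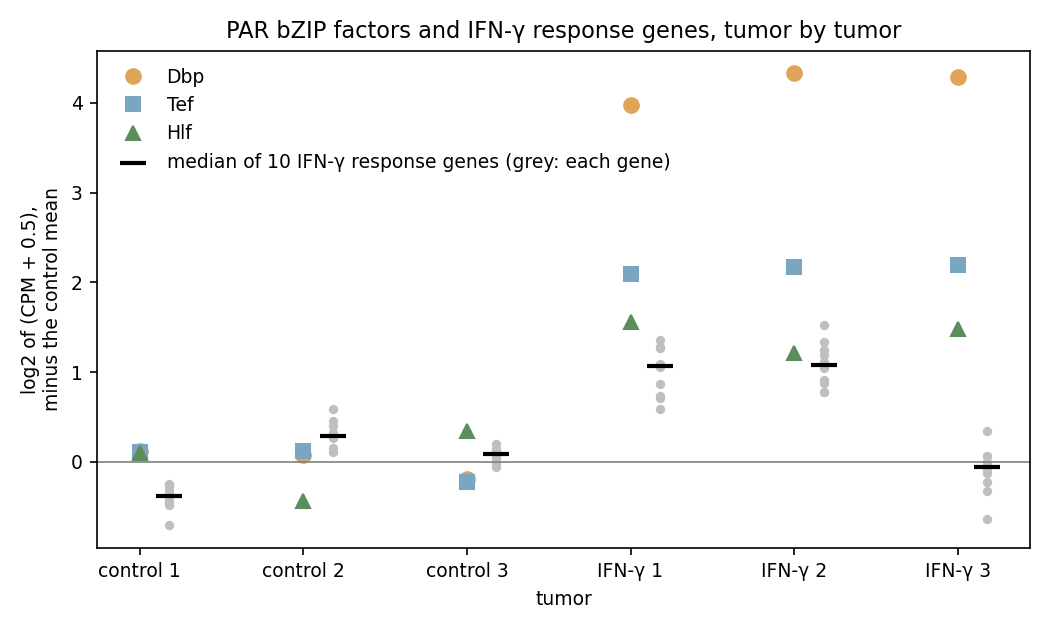
Log2 of CPM plus 0.5, minus the control mean, of Dbp, Tef and Hlf in each of the 6 tumors, with 10 IFN-γ response genes (grey points) and their median (black bar). In IFN-γ tumor 3 the median of the response genes is -0.058 while Dbp is at 4.28 and Tef at 2.19.

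Markers of other cell types were set beside the result for their whole lists. Of the 8 adipocyte markers, 6 had every IFN-γ tumor above every control and 6 had an unadjusted p under 0.05 in edgeR, where 7.62% and 10.2% of all genes tested did, and 0 passed the adjusted threshold (0.112% of all genes). Their median log2 fold change was 2.07, against 0.0015 over all genes tested and 2.15 for Tef. Adipoq, the adipocyte hormone adiponectin, had 1.81, 0.451 and 0.971 CPM in the control tumors against 3.13, 6.84 and 5.69 CPM in the IFN-γ tumors, without overlap. Plin1, Cidec and Cfd had log2 fold changes of 2.08, 2.26 and 2.05, and Lep, at no more than 36 counts, one of 3.3. The summed level of the 8 ran from 122 to 164 CPM in the control tumors and from 178 to 226 CPM in the IFN-γ tumors, most of it Fabp4, whose groups overlapped (log2 fold change 0.23). None of the 8 was at 0 in any tumor. The part of adipocytes in the PAR bZIP result was not tested. Skeletal muscle markers summed to between 144 and 909 CPM in the control tumors and between 162 and 481 CPM in the IFN-γ tumors, with the groups overlapping. Macrophage markers summed to between 1683 and 1832 CPM in the control tumors, to 1746 CPM in IFN-γ tumor 3, and to 2328 and 2523 CPM in the other 2. Hepatocyte markers, 3 of 6 of which had 0 counts in every tumor, summed to no more than 1.09 CPM in any tumor. Fibroblast, endothelial and T cell lists had groups that overlapped in their sums.

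The genes next to the members were looked at because the strand setting of the counting is not stated. The end of Dbp overlaps, by 737 bases, the end of Sphk2, a sphingosine kinase gene on the opposite strand. Sphk2 had 541, 578 and 621 counts in the control tumors and 422, 443 and 440 in the IFN-γ tumors, opposite in direction to Dbp (log2 fold change -0.37, adjusted p = 0.25, edgeR). Reads in the shared stretch cannot be assigned without strand. Car11, on the other side of Dbp, was at 6.38 to 7.54 CPM in the control tumors and 7.61 to 9.53 CPM in the IFN-γ tumors (log2 fold change 0.35, adjusted p = 0.53, edgeR). The start of Tef overlaps the antisense gene Gm17597 by 193 bases, which had between 6 and 12 counts in each tumor. Next to Hlf, Mmd and Stxbp4 had overlapping groups, with log2 fold changes of -0.098 and -0.11.

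Across the 6 tumors, the genes whose log2 CPM followed Dbp most closely among 14068 genes were Tef (Pearson's r = 0.998), Epb41l2 (0.992), Asah1 (0.992), Per2 (0.991) and Kiz (0.991). Those reported for Tef were Dbp, Nr1d2 (0.994), Kif9 (0.993) and Mccc1 (0.992), and for Hlf they were Eif2a (0.992), Serp2 (0.991), Ces1g (0.990), Serf2 (0.987) and Fam117b (0.986). Hlf itself correlated with Dbp at 0.924 and with Tef at 0.909. The points are 6 tumors in 2 separate groups, so genes whose groups lie apart with little spread within them have a high r whatever the size of the change, and several of these genes differed little between the groups, with log2 fold changes of 0.20 for Epb41l2, 0.22 for Asah1 and 0.15 for Mccc1.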

How the data were processed

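RNA of 6 tumors, 3 per group by their titles, was sequenced, and the authors deposited counts of reads per gene, whole numbers without normalization. HISAT2 and mm10 are named in the submitters' processing notes. The counting program, annotation and strand setting are not given in the sources used here. The labels do not say that each tumor came from a separate mouse, so p-values measure the spread between these samples. Library totals ran from 15759300 to 17559680 counts, and the upper limit at 0 counts (3 counts, counting error only) was at most 0.188 CPM. All pairs of libraries differed by more than counting noise, the smallest chi-square per gene being 6.17.

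Counts were tested with edgeR 4.0.16 (R 4.3.3): default filter on low counts, TMM factors, quasi-likelihood test and Benjamini-Hochberg adjustment over 15114 genes, threshold 0.05. CPM values use the TMM-scaled totals, and ratios by tumor use log2 of CPM plus 0.5. The standard error is the log2 fold change divided by the square root of F. Alternatives were DESeq2 1.42.0, limma-voom (limma 3.58.1), upper-quartile factors or none, no filter beyond 1 count or at least 10 counts in every tumor, a replicate block and each tumor left out. A second gene length was added after seeing the data. The test was tried on simulated data. The members and gene lists were chosen with earlier results of these data known, and the lists come from general knowledge. Genes named were the members, Nfil3, genes of the clock and C/EBP lists, the 4 most abundant drug and metabolism genes, the genes next to each member and the 5 genes most correlated with each. Cell type markers given singly were picked after their values were seen. A gene correlated with Tef and the single value of a clock gene are not reported here. Gene positions and exon lengths are from GENCODE M21, where 99.4% of identifiers were found. Of 2 rows named Ddit3, the one with counts was used. RefSeq promoter windows were found for 3 of 3 members, 15 of 20 clock genes, 15 of 16 drug and metabolism genes and 4 of 6 C/EBP genes.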

Additional observations from a re-analysis of the deposited data

How the results depend on the processing

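With single tumors left out, the log2 fold change of Dbp ran from 4.18 to 4.38, that of Tef from 2.04 to 2.22 and that of Hlf from 1.43 to 1.95. Nfil3 kept its direction and stayed past the threshold under each alternative run, with adjusted p from 5.3e-17 in DESeq2 to 0.046 with the replicate block (edgeR otherwise). The number of genes past the threshold, 12 higher and 5 lower, did depend on the fit. With DESeq2 it was 125 and 71, without the filter on low counts 150 and 70, 7 higher with library size alone and 3 lower with limma-voom. Leaving out single tumors gave from 4 to 381 higher, lowest without control tumor 2 or IFN-γ tumor 1, and from 2 to 112 lower, both highest without IFN-γ tumor 3. With the replicate number as a block, 5 were higher and 2 lower, and deviations of tumors that share a number correlated at -0.24, -0.0047 and -0.22, which gives no sign of pairing. Under the block Per2 had an adjusted p of 0.13 and Bhlhe41 of 0.17. Of the core clock genes, 7 in the main analysis, 11 passed with no filter and from 4 to 11 with single tumors left out. For clock genes with a D-box, 4 in the main analysis, that range was 2 to 6. For the C/EBP genes, 0 in the main analysis, 2 passed with DESeq2, 2 with no filter, and from 0 to 2 (without IFN-γ tumor 3) with single tumors left out. For the drug and metabolism genes it was 0 to 0. The ratio of Tef to Dbp per kilobase in the control tumors, 2.46, was 2.70 with the longest coding transcript as length, chosen after seeing the data, and ran from 2.42 to 2.48 with single tumors left out. In the IFN-γ tumors it ran from 0.535 to 0.590. The cause of these shifts was not tested. Genes near no change turned sign when single tumors were left out, with log2 fold changes from -0.10 to 0.023 for Por, from -0.12 to 0.31 for Cebpb, from -0.058 to 0.10 for Cebpg and from -0.14 to 0.13 for Abcg2, which was -0.0062 with library size alone and is named only for that, outside the naming rule. Of 338 comparisons for 26 genes given singly, 297 kept direction and side of the threshold, 17 passed only under the alternative, 15 no longer passed and 9 turned sign. With 14 to 80 counts per tumor, depth limits what can be said of Hlf.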
